A study of Mus musculus with 9 samples.

Results

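The mRNAs of the PI3K-AKT-FOXO pathway described here are the 9 genes Pik3ip1, Inpp5d, Pik3r1, Pik3cd, Akt1, Akt2, Foxo1, Foxo3 and Tsc1, found by NCBI Gene ID among the 27179 genes of a count table. All 9 passed the filter on low counts, which kept 13129 genes. The table comes from RNA immunoprecipitation sequencing (RIP-seq), in which RNA caught together with a protein is sequenced, here with the phosphorylated form of UPF1 (p-UPF1), caught by an antibody. The cells were splenic B cells from wild-type mice, taken as CD43- cells and kept for 72 h with CD40L (5 ug/mL), anti-IgM antibody (10 ug/mL) and IL-4 (20 ng/mL) per the labels. In the study's methods the CD40 stimulus is an antibody against CD40. All 3 groups share this genotype and stimulation. They are the lysate itself (input), the RNA that came down with normal rabbit IgG (IgG), and the RNA that came down with the p-UPF1 antibody, with 3 libraries each. The study's methods give its mice as age-matched young adults of both sexes. Whether the libraries of a group came from separate mice is not stated in the sources used here, so p-values measure the spread between these libraries only.

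PI3K phosphorylates a membrane lipid when the B cell receptor is engaged, and the lipid brings the kinase AKT to the membrane, where it is activated. AKT then phosphorylates FOXO transcription factors, which leave the nucleus, and the TSC complex, a brake on mTORC1. In B cells this pathway carries survival and growth signals, while FOXO1 is needed for B cell development and for the germinal centre programme. UPF1 is an RNA helicase of nonsense-mediated decay (NMD), which degrades mRNAs on which translation ends in an unfavourable context, and it is phosphorylated on the RNAs that decay factors are brought to.

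Since UPF1 acts where translation stops, the last coding bases and the stop codon (in capitals) are shown for the member most enriched with p-UPF1, for the FOXO paralogs, which went opposite ways, and for Tsc1. The sequences are from RefSeq on GRCm38, the assembly that mm10 names, and are written 5′ to 3′ on the gene's strand.
Pik3ip1, chr11:3341698-3341727, plus strand: acgggccaggctggcacccctggggccTGA
Foxo1, chr3:52346347-52346376, plus strand: actacaacacacagctgggtgtcaggcTAA
Foxo3, chr10:42196501-42196530, minus strand: gcctcatctcaaagctgggtaccaggcTGA
Tsc1, chr2:28687144-28687173, plus strand: tacaatgagactcatcctgaacacagcTGA
Foxo1 and Foxo3 have the same base at 21 of these 30 positions when set side by side without gaps, and end in different stop codons. Of the 9 members, 7 end in TGA, 1 in TAA (Foxo1) and 1 in TAG (Pik3cd).

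Total counts were 19873687 to 24945286 in input, 17372510 to 18550508 with IgG and 23251890 to 24802119 with p-UPF1. Libraries of a group were close to each other, with Pearson's r of log2 CPM (reads of a gene scaled to a fixed library size) over genes of at least 0.9962 in input, 0.9821 with IgG and 0.9958 with p-UPF1, so IgG was the most variable group. Among marker genes, the summed level of 8 B cell markers was 9889 to 10039 CPM in input, 6165 to 6247 with IgG and 3719 to 3751 with p-UPF1, with 2 of the 8 higher and 5 lower in p-UPF1 than in IgG. The 6 T cell markers summed to at most 2.19 CPM, the 4 NK cell markers and the 4 erythroid markers to at most 0.858 each, and the 5 neutrophil markers to at most 0.151, with Ncr1, Ly6g, Elane, Hbb-bs and Hba-a1 at 0. The 5 myeloid markers summed to 141.7 to 153.6 CPM in input, 94.3 to 103 with IgG and 60.5 to 62.1 with p-UPF1, nearly all of it Adgre1 and Cd68, with Lyz2, Csf1r and Itgam near 0. The 4 dendritic cell markers summed to 38.6 to 39.0, 40.5 to 45.5 and 176 to 179 CPM, nearly all of it Zbtb46, and the 4 plasma cell markers to 18.8 to 28.3 CPM over all libraries with Tnfrsf17 at 0. The part of other cell types in the results below was not tested.

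Of the 9 members, 8 had higher and 1, Foxo1, had lower levels in p-UPF1 than in IgG libraries, and the same held against input. Each of these differences passed edgeR's quasi-likelihood test at an adjusted P under 0.05, and in each the libraries of the 2 groups did not overlap. How many of all genes tested also showed no overlap was not counted, so this sets the members apart from no others. Over all genes tested, 40.4% were higher and 42.2% lower against IgG, and 40.8% were higher and 42.6% lower against input. The median log2 fold change of the members was 1.22 over IgG and 1.18 over input, where that of all genes tested was -0.03 in both. Both comparisons use the same p-UPF1 libraries and are not independent of each other. The study's methods define a p-UPF1-bound RNA by a minimum log2 fold change of 1 relative to IgG and of 2 relative to input, both at an adjusted P under 0.05. Pik3ip1 met this definition, and the other 8 members did not, against 6.25% of all genes tested. The first condition alone was met by Pik3ip1, Pik3r1, Pik3cd, Foxo3 and Tsc1, against 22.2% of all genes, and the second by Pik3ip1 alone, against 6.31%. Pik3r1, Foxo3 and Tsc1 stood at 1.82, 1.85 and 1.80 over input, just short of the second condition. All log2 fold changes are relative to the TMM scale, on which the median of all genes need not be 0.

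**Figure D1:**
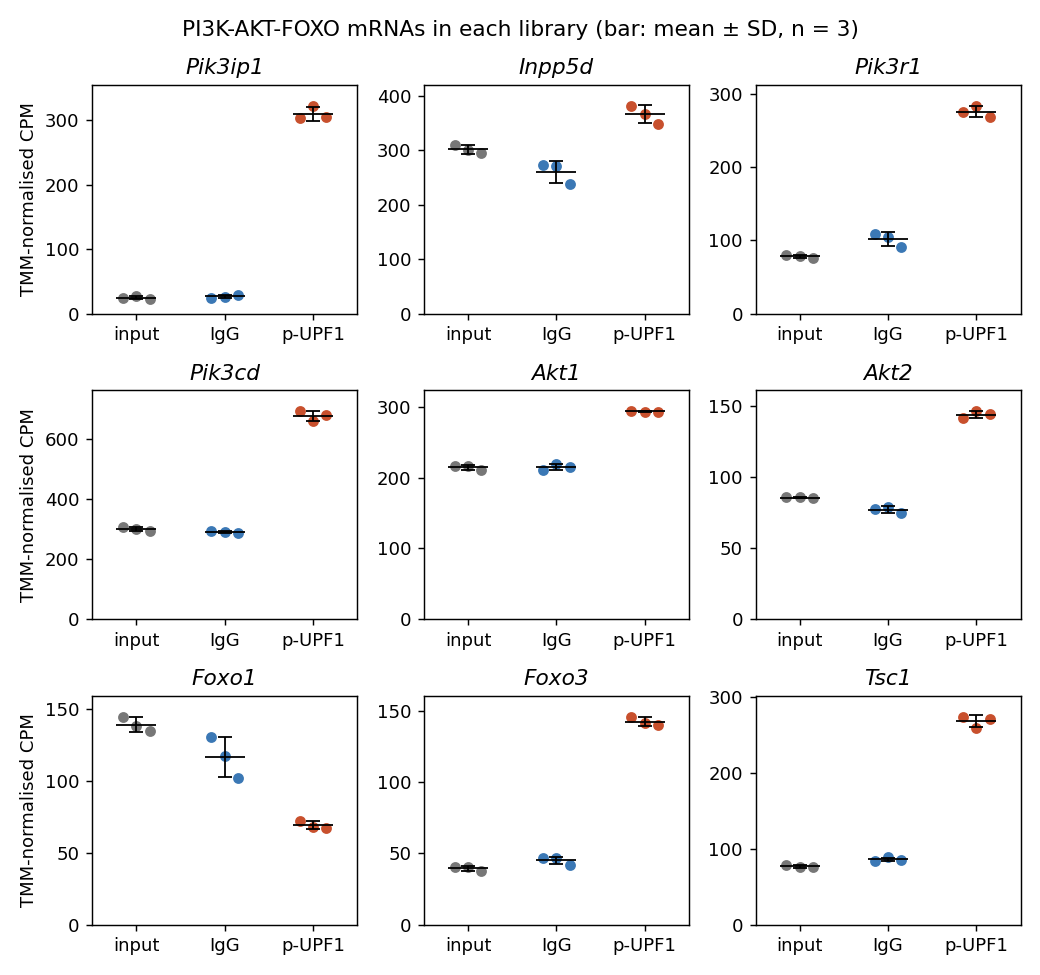
TMM-normalised CPM of the 9 mRNAs in each of the 9 libraries, with 1 panel per gene, its own axis from 0, points for libraries and black bars for the mean ± SD of 3 libraries. The p-UPF1 libraries lie above both other groups in 8 panels and below both in the Foxo1 panel, and Pik3ip1 goes from under 30 CPM to over 300 CPM.

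Pik3ip1 encodes a transmembrane protein that binds the catalytic subunit of PI3K and inhibits it. The gene lies on chromosome 11 (GRCm38, 3319241 to 3342971, plus strand). Its level was 22.6, 25.0 and 26.6 CPM in the input libraries, 24.7, 26.0 and 29.4 CPM in the IgG libraries, and 303, 304 and 322 CPM in the p-UPF1 libraries. Input and IgG libraries overlapped, and each p-UPF1 library lay far above all 6 of them. The means were 24.7 ± 2.02, 26.7 ± 2.45 and 310 ± 10.9 CPM (SD, n = 3), resting on 491 to 557, 481 to 554 and 6677 to 7220 raw counts per library. The log2 fold change over IgG was 3.54 (SE 0.07, 11.6-fold, adjusted P = 3.78e-17 by edgeR), which ranks Pik3ip1 at 41 from the highest of 13129 genes. Over input it was 3.65 (SE 0.07, 12.6-fold, adjusted P = 1.91e-17 by edgeR), at rank 6. IgG and input differed by a log2 fold change of 0.11 that did not pass (SE 0.07, adjusted P = 0.21 by edgeR), but it passed at 0.20 to 0.23 with library size alone, with TMM on an input or an IgG reference and without the low-count filter. Without the IgG library lettered A or the input library lettered A it was 0.03 or 0.04 and did not pass. Over the 21 alternative settings of the processing the value ranged from 3.37 to 3.61 over IgG and from 3.58 to 3.78 over input. The lncRNA genes Gm11944 on the same strand and Gm12592 on the opposite strand share 231 and 91 exon bases with Pik3ip1, and held 131 and 118 counts over all 9 libraries together.

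The genes whose pattern over the 9 libraries was most like that of Pik3ip1 were Surf6, Tab1, Nsl1, Cyth1 and Tmem156. Likeness was the Euclidean distance between log2 CPM values centred on each gene's mean, taken over 8991 genes of at least 10 CPM on average. The distances were 0.224, 0.369, 0.395, 0.405 and 0.439, where the median distance over all compared genes was 5.18. That these genes meet the definition of a p-UPF1-bound RNA follows from how they were chosen. Cyth1, an exchange factor for ARF GTPases, had mean levels of 208 CPM in input, 239 with IgG and 2367 with p-UPF1. The points share the same 9 libraries, so the distances describe these libraries only.

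Among the subunits of PI3K, the regulatory subunit Pik3r1 and the catalytic subunit Pik3cd, which is the leukocyte isoform, were both higher with p-UPF1. Pik3r1 (chromosome 13, 101680761 to 101768217, minus strand) was at 75.6, 78.9 and 80.0 CPM in input, 90.4, 105 and 108 with IgG and 268, 275 and 284 with p-UPF1. The 3 groups were apart, with IgG between the others. Its log2 fold change was 1.44 relative to IgG (SE 0.06, adjusted P = 3.84e-13 by edgeR) and 1.82 against input (SE 0.06, adjusted P = 1.89e-14 by edgeR). Pik3cd (chromosome 4, 149649168 to 149702566, minus strand) was at 293, 300 and 307 CPM in input, 288, 292 and 295 with IgG and 660, 683 and 694 with p-UPF1. Its input and IgG libraries overlapped and the p-UPF1 libraries lay above them, with a log2 fold change of 1.22 relative to IgG (SE 0.04, adjusted P = 1.41e-14 by edgeR) and 1.18 against input (SE 0.04, adjusted P = 1.77e-14 by edgeR). Of 14 subunits and adaptors measured, these 2 included, 9 were higher, 3 lower and 2 did not pass against IgG, where 40.4% and 42.2% of all genes were higher and lower, with a median log2 fold change of 0.59 and a range from -0.77 to 2.16. Pik3ap1, an adaptor that brings PI3K to the membrane in B cells and is also known as BCAP, was the only one to meet the definition, at 2.16 over IgG and 2.02 over input. Its mean level was 169 ± 4.48 CPM in input, 152 ± 8.63 with IgG and 683 ± 21.6 with p-UPF1 (SD, n = 3). With library size alone or upper-quartile factors as the scale, with a test of the fold minimum itself (glmTreat), or without the input library lettered C or the p-UPF1 library lettered B, Pik3ap1 no longer met it.

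Inpp5d encodes SHIP1, a phosphatase of blood cells that removes a phosphate from the lipid PI3K makes. The gene (chromosome 1, 87620312 to 87720510, plus strand) was at 295, 300 and 311 CPM in input, 237, 271 and 273 with IgG and 349, 367 and 382 with p-UPF1. The p-UPF1 libraries were the highest and the IgG libraries the lowest. The shift was small beside that of Pik3ip1, at a log2 fold change of 0.49 relative to IgG (SE 0.05, adjusted P = 1.86e-07 by edgeR) and 0.28 against input (SE 0.05, adjusted P = 0.000111 by edgeR). Of 9 genes that antagonise PI3K signalling, with Pik3ip1 and Inpp5d among them, 6 were higher, 2 lower and 1 did not pass against IgG (all genes, 40.4% higher and 42.2% lower), with a median of 0.61. Pik3ip1 alone met the definition.

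Akt1 and Akt2 encode AKT kinases, of which Akt1 had the higher level per kilobase in every group. Akt1 (chromosome 12, 112653821 to 112674884, minus strand) was at 211, 216 and 217 CPM in input, 210, 215 and 219 with IgG and 293, 294 and 294 with p-UPF1. The input and IgG libraries overlapped, with a log2 fold change of 0.00 (SE 0.04) that passed at 0.11 to 0.12 under 4 other settings, while p-UPF1 lay above both, by 0.45 relative to IgG (SE 0.04, adjusted P = 6.12e-09 by edgeR) and 0.45 against input (SE 0.04, adjusted P = 5.06e-09 by edgeR). With library size alone, where the median of all genes over IgG moved by -0.16, the Akt1 value over IgG was 0.29 and still passed. Akt2 (chromosome 7, 27591552 to 27640826, plus strand) was at 85.2, 85.7 and 86.2 CPM in input, 74.6, 77.7 and 79.2 with IgG and 142, 144 and 146 with p-UPF1. It rose by 0.90 relative to IgG (SE 0.04, adjusted P = 3.21e-12 by edgeR) and 0.75 against input (SE 0.04, adjusted P = 2.77e-11 by edgeR). Of the 9 genes of AKT and the kinases around it, 3 were higher, 4 lower and 2 did not pass against IgG, with a median of -0.33. Against input, 5 were higher, 3 lower and 1 did not pass, with a median of 0.47. Over all genes 40.4% were higher and 42.2% lower against IgG, and 40.8% and 42.6% against input. Trib3, a pseudokinase that binds AKT and is induced in the unfolded protein response, met the definition at 2.43 over IgG and 2.03 over input, and no longer met it with library size alone, upper-quartile factors or glmTreat. The genes of both GSK3 kinases, which AKT inhibits, were lower with p-UPF1, with Gsk3a at -1.69 and Gsk3b at -1.03 over IgG. Over all genes, 21.9% lay at -1 or below with an adjusted P under 0.05. Gsk3a shares 506 exon bases with 9130221H12Rik on the opposite strand, so its counts are uncertain if strand was not used in counting.

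The FOXO factors Foxo1 and Foxo3 moved in opposite directions. Foxo1 (chromosome 3, 52268337 to 52350109, plus strand) was at 135, 138 and 145 CPM in input, 102, 118 and 131 with IgG and 67.2, 68.2 and 72.5 with p-UPF1. Every p-UPF1 library lay below every other library. The log2 fold change was -0.76 relative to IgG (SE 0.07, 1.69-fold lower, adjusted P = 3.45e-08 by edgeR) and -1.01 against input (SE 0.07, 2.01-fold lower, adjusted P = 6.15e-10 by edgeR). Foxo3 (chromosome 10, 42181845 to 42276695, minus strand) was at 37.5, 40.5 and 40.7 CPM in input, 42.1, 46.6 and 46.7 with IgG and 140, 141 and 146 with p-UPF1. Every p-UPF1 library lay above every other library, by a log2 fold change of 1.65 relative to IgG (SE 0.05, 3.15-fold, adjusted P = 2.19e-14 by edgeR) and 1.85 against input (SE 0.05, 3.60-fold, adjusted P = 4.77e-15 by edgeR). In raw counts, an input library held 3.52 times as many reads of Foxo1 as of Foxo3 and an IgG library 2.58 times as many (geometric means). In p-UPF1 libraries the ratio was 0.487. Per kilobase of exon, too, the order of the paralogs turned, from 25.1 CPM for Foxo1 and 5.83 for Foxo3 in input to 12.5 and 20.9 with p-UPF1. Foxo4, the remaining factor tested, was at 0.83 over IgG and 0.64 over input, and Foxo6 did not pass the filter on low counts.

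Tsc1 encodes a subunit of the TSC complex, which restrains the GTPase Rheb and through it mTORC1. The gene (chromosome 2, 28640993 to 28691172, plus strand) was at 75.3, 75.9 and 78.7 CPM in input, 83.9, 85.7 and 88.5 with IgG and 259, 270 and 274 with p-UPF1. The 3 groups were apart. The log2 fold change was 1.64 relative to IgG (SE 0.04, 3.11-fold, adjusted P = 1.79e-15 by edgeR) and 1.80 against input (SE 0.04, 3.49-fold, adjusted P = 4.68e-16 by edgeR). The other subunits of the complex went the other way. Tsc2 was at -0.47 over IgG and -0.72 over input, and Tbc1d7 at -1.42 and -2.04. Rheb, the GTPase they act on, was at -1.76 and -1.84. Tsc2 shares 699 exon bases with Pkd1 on the opposite strand, a gene with 9804 counts over all libraries, so the Tsc2 counts are uncertain if strand was not used in counting. Of 14 genes of the TSC and mTOR group tested, Tsc1 among them, 7 were higher, 6 lower and 1 did not pass against IgG, with a median of 0.15, beside 40.4% higher and 42.2% lower over all genes. The mTORC1 subunit genes Mlst8 and Rptor met the definition, at 3.24 and 2.11 over IgG and 3.03 and 2.03 over input. Rptor no longer met it with library size alone, upper-quartile factors or glmTreat. Mlst8 shares 999 exon bases with Bricd5 on the opposite strand, a gene with 0 counts. The Mlst8 counts are likewise uncertain if strand was not used in counting. Mtor, the kinase itself, was at 0.01 over IgG, which did not pass, and Deptor did not pass the filter on low counts.

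Of 20 FOXO target genes listed, 18 were tested, and 7 were higher, 9 lower and 2 did not pass against IgG, with a median of -0.12. These counts lie near the shares over all genes tested, 40.4% higher and 42.2% lower, and show nothing particular to the list. Gadd45a, a growth arrest gene, and Sesn1, a stress-induced inhibitor of mTORC1, met the definition at 2.04 and 2.24 over IgG and 2.35 and 2.60 over input. Cited2 (-2.05), Irs2 (-1.27), Klf2 (-1.13), which governs lymphocyte trafficking, and Bcl6 (-1.11), the master regulator of germinal centre B cells, lay at -1 or below over IgG. Rag1 and Rag2, the recombinase genes, did not pass the filter on low counts. Over the whole pathway list of 71 genes, 67 were tested, of which 34 were higher, 25 lower and 8 did not pass against IgG, to be read against the same 40.4% and 42.2%. The median was 0.18. Against IgG the counts moved with the scale, with 31 higher and 29 lower and a median of 0.02 with library size alone. With upper-quartile factors they were 31 and 28 with a median of 0.05. The median of all genes moved too, from -0.03 to -0.19 and -0.17 in turn, and the list median stayed above it. Shares of all genes higher and lower were not counted on these scales. Against input, 39 were higher and 23 lower on the TMM scale (median 0.49), beside 40.8% and 42.6% of all genes. The counts against input were 39 and 23 with library size alone, and 38 and 24 with upper-quartile factors. On the TMM scale, the counts against IgG without the 9 members were 26, 24 and 8 of 58, with a median of 0.10. The definition was met by 7 of the 67, where 6.25% of all genes met it. It was met by 4 with library size alone, upper-quartile factors or a test of the fold minimum itself. The share of all genes under those settings was not counted, so the 4 cannot be read against 6.25%. Pik3ip1, Mlst8, Gadd45a and Sesn1 were always among the genes meeting it. Under library size alone and 4 other scalings, none of the genes called in any comparison changed its sign.

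**Figure D2:**
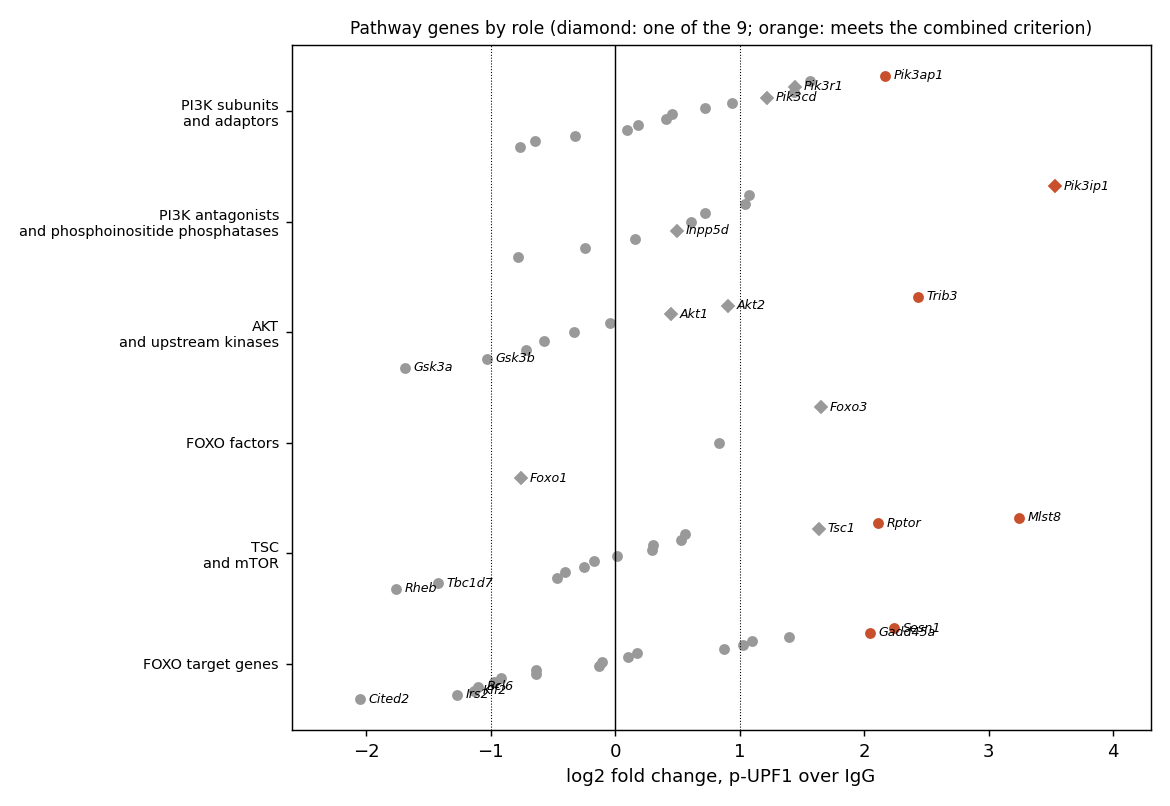
Log2 fold change of p-UPF1 over IgG for the 67 pathway genes tested, in rows by role, with diamonds for the 9 members, orange for genes that met the definition of a p-UPF1-bound RNA, names for these, the members and the genes called at -1 or below, and dotted lines at -1 and 1. Each role holds genes on both sides of 0, and Pik3ip1 and Mlst8 lie farthest to the right.

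The comparison of IgG with input asks what antibody and beads recover without the p-UPF1 specificity. The members differed little there. Pik3r1 (0.37, SE 0.06), Foxo3 (0.19, SE 0.06) and Tsc1 (0.17, SE 0.04) were higher in IgG, against 18.2% of all genes tested, and Inpp5d (-0.21, SE 0.05), Akt2 (-0.15, SE 0.04) and Foxo1 (-0.25, SE 0.07) were lower, against 34.7%, by edgeR at an adjusted P under 0.05. Pik3ip1, Pik3cd and Akt1 did not pass. The median of all genes was -0.10. These small shifts depended on the scale. With library size alone, 5 members were higher and 0 lower. In the pathway list, 19 genes were higher and 20 lower, and scaling by library size changed this to 22 and 11. Without the input library lettered A, the call for Foxo3 was lost (0.14, adjusted P = 0.0825 by edgeR).

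**Figure D3:**
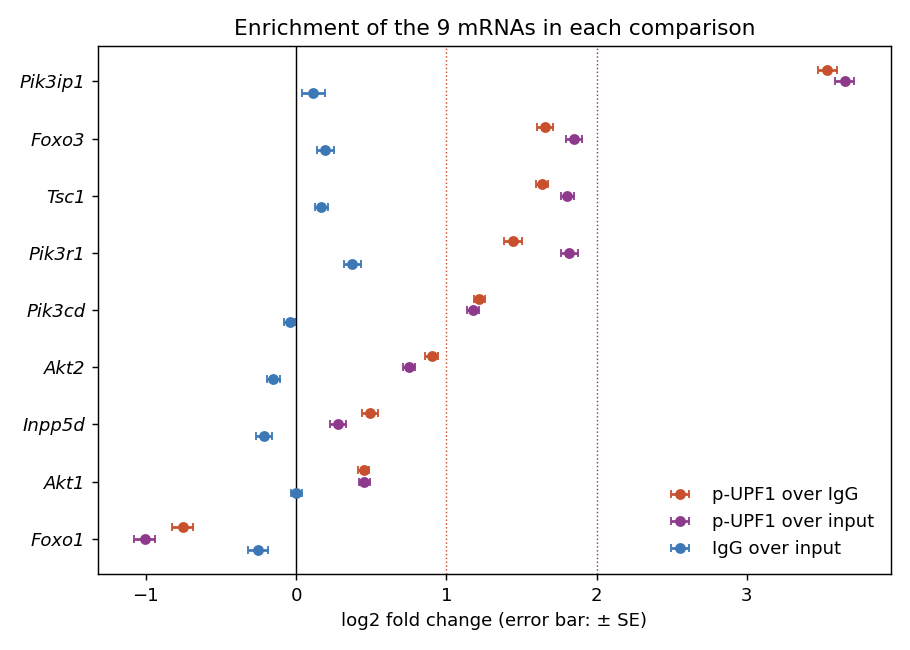
Log2 fold changes of the 9 mRNAs with their SE in the 3 comparisons, ordered by the value over IgG, with dotted lines at the minimum over IgG (1) and over input (2). Pik3ip1 lies beyond 3.5 in both p-UPF1 comparisons, Foxo1 lies below 0 in all 3 comparisons, and the values of IgG over input stay between -0.25 and 0.37.

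Ratios of 2 mRNAs within a library do not depend on how libraries are scaled to each other. For all 6 ratios computed, the p-UPF1 libraries did not overlap with the IgG or the input libraries. The exact two-sided permutation test gave P = 0.1 for each of the 12 comparisons, which is the smallest value that 3 against 3 libraries allow, and an adjusted P of 0.1, so none could reach 0.05. The log2 ratio of Foxo1 to Foxo3 lay between 1.77 and 1.85 in input, between 1.28 and 1.49 with IgG, and between -1.06 and -1.01 with p-UPF1. The mean ratio was thus lower in p-UPF1 by 5.30-fold against IgG and 7.24-fold against input. The ratio of Pik3ip1 to Pik3cd, the inhibitor to a catalytic subunit of PI3K, was higher in p-UPF1 by 4.99-fold against IgG and 5.55-fold against input. Against Inpp5d, the other antagonist, Pik3ip1 gained 8.25-fold and 10.3-fold. Within the TSC complex, the ratio of Tsc1 to Tsc2 was 0.838 in input, 1.12 with IgG and 4.84 with p-UPF1, and is uncertain for the overlap of Tsc2 with Pkd1. The ratio of Akt1 to Akt2 moved less, by -0.45 against IgG and -0.30 against input on the log2 scale, and that of Pik3r1 to Pik3cd by 0.23 and 0.64.

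**Figure D4:**
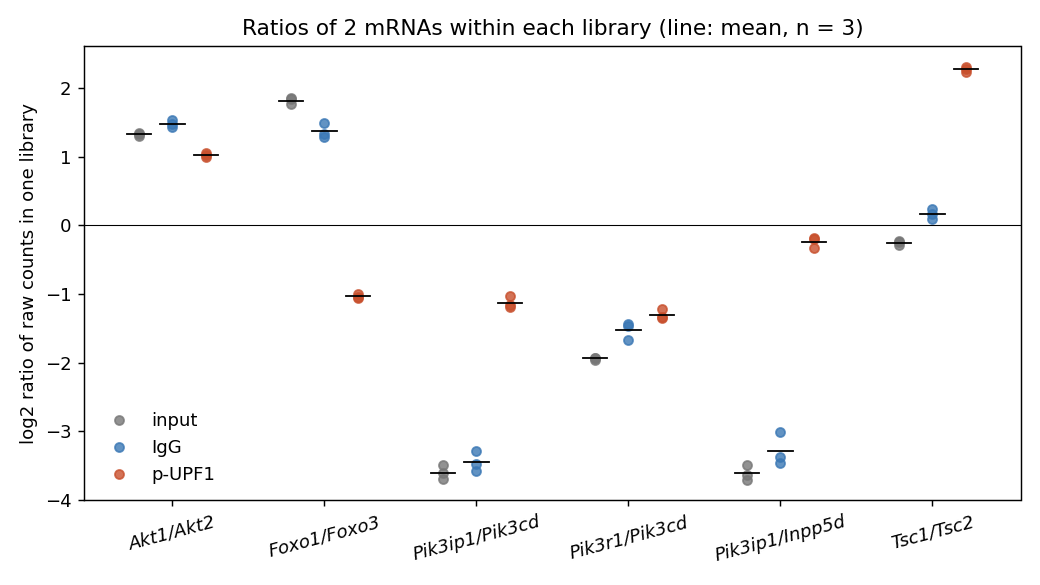
Log2 ratio of the raw counts of 2 mRNAs in the same library, with points for the 3 libraries of each group and a line at their mean. Foxo1/Foxo3 falls from above 0 in input and IgG to about -1 in p-UPF1, and Tsc1/Tsc2 rises from about 0 to above 2.

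Levels of different genes were set against each other per kilobase of annotated exons. In input the order in mean CPM per kilobase was Akt1 (75.2), Inpp5d (61.1), Pik3cd (55.6), Foxo1 (25.1), Akt2 (16.5), Pik3ip1 (11.0), Pik3r1 (10.6), Tsc1 (9.93) and Foxo3 (5.83). Only Pik3ip1 and Pik3r1 overlapped among neighbours. In IgG libraries Akt1 (75.3) led as well and Foxo3 (6.65) was last, and the neighbours Pik3cd and Inpp5d, Akt2 and Pik3r1, Pik3r1 and Pik3ip1, and Pik3ip1 and Tsc1 overlapped. In p-UPF1 libraries the order was Pik3ip1 (138), Pik3cd (126), Akt1 (103), Inpp5d (74.2), Pik3r1 (37.4), Tsc1 (34.7), Akt2 (27.8), Foxo3 (20.9) and Foxo1 (12.5), with no overlap between neighbours. Pik3ip1 thus went from the sixth to the first place, and Foxo1 from the fourth to the last.

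Features of the mRNAs that the choice of genes did not use were read from the RefSeq transcript with the longest coding sequence, beside 11896 coding genes tested. Pik3ip1 has a short coding sequence of 795 bases (percentile 21.4) and a 3′ UTR of 1244 bases (percentile 57.3), with 0 ATG triplets in its 5′ UTR and 0 introns after the stop codon. Its coding GC content is 59.7% (percentile 87.5). None of its 10 GENCODE transcripts is of the NMD class, where 29.0% of the genes have at least 1 such transcript. Among the members, Tsc1 has 2 NMD-class transcripts of 11 and Inpp5d 1 of 11. An intron after the stop codon, which places an exon junction downstream of it, is present in 4.09% of the genes and in both Foxo1 and Foxo3, whose stop codons are shown above. The junction lies 14 bases after the stop codon in Foxo1 and 35 bases after it in Foxo3, both within the 50 bases beyond which a junction is taken to trigger NMD. In 448 genes (3.77%) with 1 such intron within 50 bases, the median log2 fold change over IgG was -0.05. In 35 genes (0.294%) with a junction more than 50 bases after the stop codon, it was 1.18, beside 0.01 in the genes without one.

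The FOXO paralogs that parted also share long 3′ UTRs, of 3128 bases in Foxo1 (percentile 88.6) and 4486 in Foxo3 (percentile 95.7), with a GC content of 41.5% (percentile 36.2) and 47.9% (percentile 65.1). Over all coding genes tested, the median log2 fold change over IgG was -0.78, -0.02, 0.44 and 0.39 over 4 bins of equal size from the shortest to the longest 3′ UTRs. By 3′ UTR GC content it was -0.55, -0.04, 0.32 and 0.45 from the lowest to the highest of 4 bins. Foxo1, in the longest bin and the second GC bin, thus lay below the median of both. Foxo3, Pik3r1 (4119 bases), Tsc1 (3999 bases) and Akt2 (2685 bases) were in the longest bin too, and lay above its median. These are descriptions over genes, with no test.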

How the data were processed

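The authors deposited raw read counts per NCBI Gene ID for the 9 libraries. The labels and the submitters' processing notes name a directional library kit, cutadapt, HISAT2, featureCounts and mm10, without versions. The study's RNA-seq methods describe unstranded alignment, and strand use in counting is not stated for RIP-seq. The counts hold no molecular identifiers, so reads amplified from 1 molecule count separately. Columns carry letters where the labels number replicates, so each was assigned to its group only.

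Of 27179 IDs, 25275 were named through RefSeq on GRCm38 and 18 more through GENCODE, and 1886 (0.373% of the counts) were not. Genes were kept by filterByExpr (minimum count 10, minimum total 15), which left 13129 genes with 99.9% of the counts, scaled by TMM in edgeR 4.0.16 (R 4.3.3) and tested with glmQLFit and glmQLFTest (two-sided, 3 groups, no covariate, 6 residual degrees of freedom, prior count 0.125), with Benjamini-Hochberg adjustment over all genes tested. CPM are TMM-normalised. SE were derived from the test statistic. Ratios within libraries were tested by exact permutation (scipy 1.17.1). The script was tested on simulated data. All pairs of libraries within a group differed by more than sampling noise, with a chi-square per degree of freedom of at least 1.38.

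The members, the gene lists and the naming rule were chosen with earlier results of these data known. Named were the members, pathway genes meeting the definition or at -1 or below over IgG, and the 5 genes most like Pik3ip1. Tsc2, Mtor, Foxo4 and the untested genes were named from the list for their place in the pathway or their overlaps, after their values were seen. Some genes of the list are not reported here by name. Alternatives were other scalings (library size, upper quartile, DESeq2 size factors, TMM on an input or IgG reference), other filters, DESeq2 1.42.0, limma-voom 3.58.1, a prior count of 2, fits of 2 groups, glmTreat, a block on the column letter and leaving out each library.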

Additional observations from a re-analysis of the deposited data

How the results depend on the processing

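For p-UPF1 over IgG and over input, all 189 member values in each comparison (9 genes under 21 settings) kept their direction and their side of the threshold, as did all 84 values of the within-library ratios, for which no call was possible. Pik3ip1 was the 1 member meeting the definition of a p-UPF1-bound RNA under every setting run. In the pathway list, 4 genes in place of 7 met it with library size alone, with upper-quartile factors and with glmTreat, and 6 to 7 when 1 library was left out. IgG over input depended on the scale, with 154 of 189 values unchanged in direction and call, 15 weaker, 8 stronger and 12 reversed. The members higher in IgG were 5 in place of 3 with library size alone and with TMM on an input or an IgG reference, and those lower were 0 in place of 3 under these settings and with only the 2 groups compared. Pik3cd, not called at -0.04, was at 0.0729 with library size alone, 0.0272 with upper-quartile factors, 0.0618 with an input and 0.0642 with an IgG reference, 0.0456 without a filter and 0.0644 with 2 groups. Akt1, not called at 0.00, ranged from -0.0219 to 0.00823 when 1 library was left out, and was called at 0.118 with library size alone, 0.107 and 0.109 with an input and an IgG reference and 0.109 with 2 groups. Pik3ip1, not called at 0.11, was called at 0.231, 0.220 and 0.222 with the first 3 of these and at 0.203 without a filter, and ranged from 0.0339 without the IgG library A to 0.161 without the input library B when 1 library was left out, with no call. The cause of these shifts was not tested beyond the change of scale itself. Library size alone moved the median of all genes by -0.16 over IgG and 0.12 in IgG over input. The count columns are lettered, so libraries could not be paired by the numbers in the labels. A replicate block on the column letter, chosen after seeing the data (4 residual degrees of freedom), changed no member's call, with Pik3ip1 at 3.54 over IgG, 7 genes of the pathway list meeting the definition, and 5328 genes higher and 5547 lower over IgG in place of 5299 and 5546. Columns of the same letter deviated from their group means with correlations of -0.005 to 0.054 over genes, and 0 of 9 pairs passed 0.1. With 3 libraries per group, the permutation test cannot go below P = 0.1, and low-count genes of the list such as Pik3r6 had an SE of 0.44.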
